A study of Mus musculus with 36 samples.

Results

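Wild-type (WT) mouse embryonic stem cells whose RNA was taken straight after 30 min of blue light were set beside WT cells kept in the dark. The column names of the count table selected 6 of the 36 libraries, 3 of lit WT cells at 0 h and 3 of dark WT cells at 0 h. Further libraries of the series, used here only for comparison, are lit and dark WT cells at 1 h and 4 h after light and lit and dark cells carrying LiTEC, the construct under study, at 0 h. Cells grew without serum, with MEK and GSK3β inhibitors and leukaemia inhibitory factor. All lit and dark cultures of both genotypes had received doxycycline at 2 µg/ml for 2 days, so light without doxycycline was not measured. The light intensity is given as 3.24 mW/cm2 in the sample notes and as 3.42 mW/cm2 in the series text. Whether the 3 replicates of a group came from different cultures is not stated in the labels; all p-values below rest on library-to-library spread, part of which may be technical. Replicate 1 belongs to batch 1 and replicates 2 and 3 to batch 2, as the column names give them.

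Cells meet misfolded proteins with heat shock factors, which bind inverted GAA repeats upstream of chaperone genes and switch them on within minutes. Small nucleolar RNAs (snoRNAs) guide the modification of ribosomal RNA, and most are cut from introns of host genes. The spliced RNA of noncoding hosts such as Gas5 is short-lived, because its translation exposes it to nonsense-mediated decay.

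Total counts were 14268987 to 18980477 in lit WT libraries and 16437092 to 21842256 in dark WT libraries at 0 h. The ribosomal RNA locus Gm26917 took 8.25 to 11.6% of counts in lit libraries and 9.54 to 10.7% in dark ones. The labelled cell type carried its markers, and the 10 stem cell markers summed to 2897 to 4059 CPM (counts scaled to a library of 1000000) in lit libraries and 3203 to 4410 CPM in dark ones. No marker of fibroblasts, primitive endoderm, mesendoderm, neuroectoderm, trophectoderm or two-cell-like cells passed the test. Of the 12 fibroblast markers 7 were tested and Dcn, Lum and S100a4 were at 0 in all 6 libraries, and the list summed to 367.8 to 480.6 CPM in lit libraries and 408.3 to 483.9 CPM in dark ones. Nearly all of these sums was Vim, at 358, 388 and 473 CPM in lit libraries and 398, 398 and 476 CPM in dark ones. The next highest member, Col1a1, reached 3.83 CPM.

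In lit WT cells at 0 h, 302 of 18193 tested genes were higher (1.66%) and 218 were lower (1.2%) than in dark WT cells, by edgeR's quasi-likelihood test at an adjusted p below 0.05. The 520 calls made up 2.86% of tested genes, and 870 genes were called with the replicate number as a block. Lit and dark libraries did not overlap for 479 of the 520 genes. Over all tested genes, every lit library lay above every dark one in 7.71% and below in 7.23%. All 520 had the same sign in both batches. The 520 were called on these same libraries, so neither count is separate support for the calls. The median log2 fold change was 0.59 among the higher genes and −0.62 among the lower ones, and 60 higher and 74 lower genes changed by more than 1 on that scale. Without dark replicate 3 the count was 230, without lit replicate 1 it was 267, and without lit replicate 2 it was 301. In bulk RNA, fewer cells of a type and less RNA per cell cannot be told apart.

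Of 30 tested genes of the heat shock list 6 rose (20%, against 1.66% of all tested genes) and 24 did not pass. The promoter windows of 4 called chaperone genes are shown because they carry, or lack, the inverted GAA repeat. Each runs from 250 bases before to 50 bases after the gene's start, 5′ to 3′ on the gene's strand, and comes from RefSeq on GRCm38.p6. They lie at chr17:34972107-34972406 (minus strand, Hspa1a), chr17:34959189-34959488 (minus strand, Hspa1b), chr5:149636287-149636586 (minus strand, Hsph1) and chr8:83607925-83608224 (plus strand, Dnajb1). Capitals mark GAANNTTC or TTCNNGAA, each of which is its own reverse complement, so that both strands are covered.
Hspa1a: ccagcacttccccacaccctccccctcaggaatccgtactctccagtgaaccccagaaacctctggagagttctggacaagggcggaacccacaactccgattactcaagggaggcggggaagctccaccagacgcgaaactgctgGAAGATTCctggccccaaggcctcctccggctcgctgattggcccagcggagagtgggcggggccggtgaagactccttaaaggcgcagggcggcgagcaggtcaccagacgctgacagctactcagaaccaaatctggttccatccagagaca
Hspa1b: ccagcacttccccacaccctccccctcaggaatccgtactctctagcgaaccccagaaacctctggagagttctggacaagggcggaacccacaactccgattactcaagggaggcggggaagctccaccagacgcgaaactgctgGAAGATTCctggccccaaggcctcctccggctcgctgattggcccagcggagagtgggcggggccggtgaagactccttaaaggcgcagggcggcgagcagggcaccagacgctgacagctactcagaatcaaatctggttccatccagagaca
Hsph1: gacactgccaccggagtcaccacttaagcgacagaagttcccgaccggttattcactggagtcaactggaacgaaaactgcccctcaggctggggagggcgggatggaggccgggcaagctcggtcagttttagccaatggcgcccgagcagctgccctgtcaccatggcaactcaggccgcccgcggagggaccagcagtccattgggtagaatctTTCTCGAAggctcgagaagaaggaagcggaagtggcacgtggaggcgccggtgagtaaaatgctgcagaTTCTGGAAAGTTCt
Dnajb1: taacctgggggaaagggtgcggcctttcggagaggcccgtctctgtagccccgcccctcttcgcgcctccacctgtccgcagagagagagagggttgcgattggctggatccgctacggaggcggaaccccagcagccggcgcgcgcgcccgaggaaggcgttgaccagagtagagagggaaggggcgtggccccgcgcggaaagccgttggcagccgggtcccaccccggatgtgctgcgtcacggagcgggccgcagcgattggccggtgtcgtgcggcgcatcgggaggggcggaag
The windows of Hspa1a and Hspa1b were identical at 296 of 300 bases, and each held 1 match, 104 bases before the gene's start. The Hsph1 window held 3 matches, of which the last 2 overlap, and the Dnajb1 window held none. The Hsph1 matches began 33 bases before and 36 and 41 bases after the gene's start. Hsph1 and Dnajb1 have 2 windows each, and the one with the most matches is shown. Over all RefSeq promoter windows, 15.1% of 32851 held at least 1 match and 1.96% held 2 or more. By gene, matches stood in 14 of 23 heat shock list genes with a window (60.9%), in 12 of 124 higher protein-coding genes (9.68%), in 9 of 89 lower ones (10.1%) and in 1475 of 10680 tested ones (13.8%). The 5 heat shock list genes with a window that were called higher had about the share of the whole list, 3 of 5 (60%). Chordc1, which was not called, held 5 matches.

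Hspa1a, an inducible Hsp70 chaperone gene (chr17:34969190-34972156, GRCm38), stood at 69.7, 28.3 and 50.5 CPM in lit replicates 1, 2 and 3, against 0.863, 1.02 and 0.562 CPM in dark replicates 1, 2 and 3. Its near-identical copy Hspa1b (chr17:34956436-34959238) stood at 158, 74.2 and 109 CPM in lit libraries, against 8.80, 6.99 and 7.43 CPM in dark ones. Every lit library lay far above every dark one for both genes, with lit replicate 2 the lowest of the lit libraries. The log2 fold change was 5.85 ± 0.48 for Hspa1a (SE; edgeR adjusted p = 2.97e-10) and 3.85 ± 0.39 for Hspa1b (edgeR adjusted p = 5.12e-08). How reads that match both copies were counted is not given in the sources used here, so the split between them is uncertain, and Hspa1a also overlaps Gm20481 on the opposite strand. Per kilobase of exon, the level of Hspa1b was 40.6 CPM in lit cells and 2.76 CPM in dark cells.

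The cochaperones moved less. Dnajb1, an Hsp40 that hands substrates to Hsp70, had 109, 74.7 and 98.5 CPM in lit libraries and 52.2, 56.3 and 61.1 CPM in dark ones. Hsph1, an Hsp110 nucleotide exchange factor of Hsp70, had 371, 291 and 359 CPM in lit libraries and 190.4, 183 and 219 CPM in dark ones. The groups did not overlap for either gene. The log2 fold change was 0.73 ± 0.09 for Dnajb1 (edgeR adjusted p = 3.58e-06) and 0.78 ± 0.12 for Hsph1 (edgeR adjusted p = 0.000134).

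**Figure D1:**
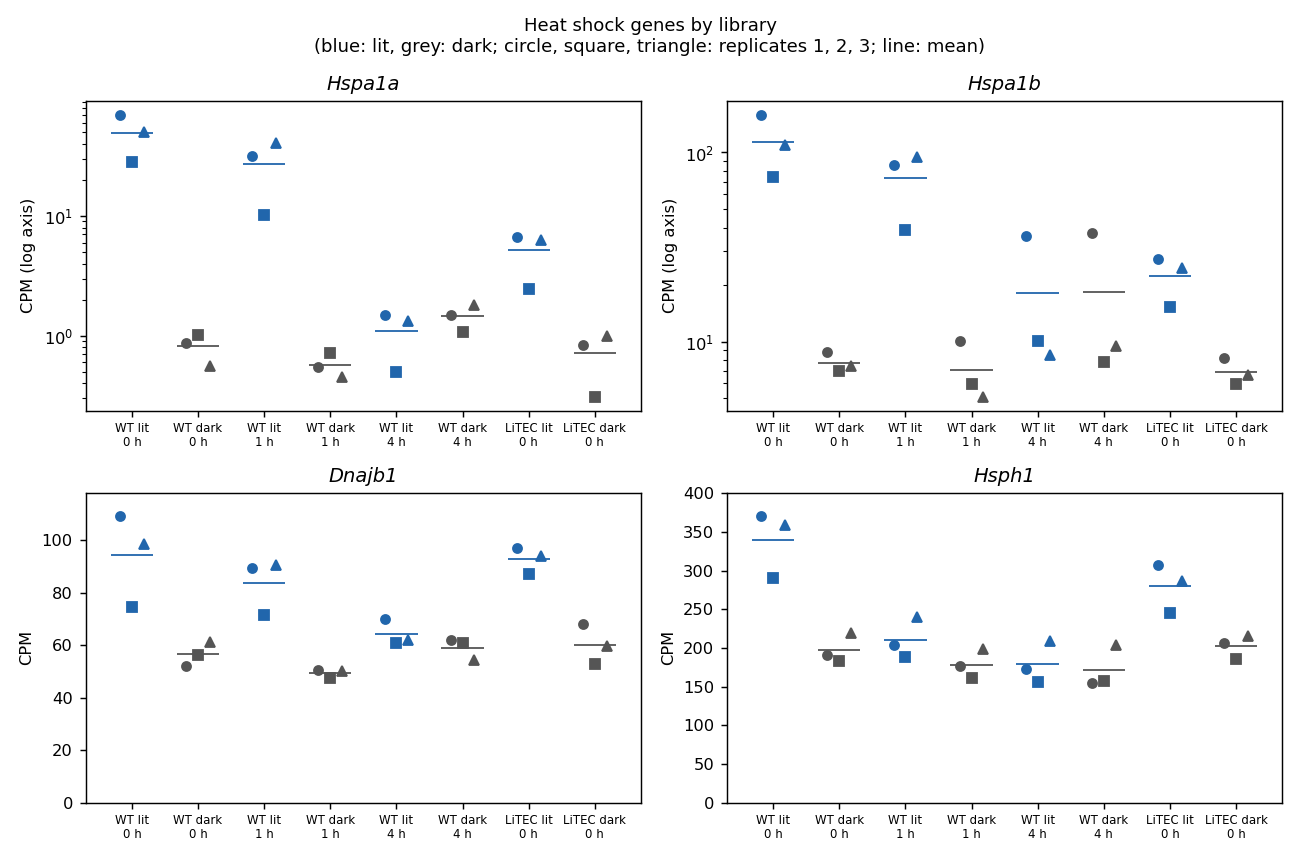
CPM of 4 chaperone genes in each library of WT cells at 0, 1 and 4 h and of LiTEC cells at 0 h, with log axes for Hspa1a and Hspa1b; circles, squares and triangles are replicates 1, 2 and 3 and lines are means. Lit WT libraries at 0 h lie above dark ones for all 4 genes, with Hspa1a at 28.3 to 69.7 CPM in lit cells and 0.562 to 1.02 CPM in dark cells.

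None of the 30 heat shock list genes fell, and the median log2 fold change of the list was 0.07 against −0.01 over all tested genes. Besides the 4 above, Hsf2, a heat shock factor, rose (0.27 ± 0.06; edgeR adjusted p = 0.00355). Hsf2 had 91.9, 88.1 and 87.6 CPM in lit libraries and 74.5, 76.7 and 71.0 CPM in dark ones, without overlap. Its call was lost without dark replicate 3 (edgeR adjusted p = 0.0553). The abundant chaperone genes did not pass, with log2 fold changes of 0.05 for Hspa8, 0.02 for Hsp90aa1, 0.02 for Hsp90ab1 and 0.06 for Hspd1. In 9 of the 30 genes every lit library lay above every dark one, against 7.71% of all tested genes.

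The 4 chaperone genes were read again at later times. At 1 h Hspa1a had 31.4, 10.2 and 40.3 CPM in lit WT libraries and 0.549, 0.716 and 0.455 CPM in dark ones, again far apart (log2 fold change 5.55 ± 0.52; edgeR adjusted p = 3.95e-08). Dnajb1 was still higher at 1 h (0.76 ± 0.09; edgeR adjusted p = 3.72e-06), while Hsph1 was not called (0.24 ± 0.12). The light effect at 0 h minus that at 1 h did not pass for any of the 4, including Hsph1 (0.55 ± 0.17; edgeR adjusted p = 0.2). At 4 h none of the 4 was called, and Hspa1a had a log2 fold change of −0.36 ± 0.67. Dark WT replicate 3 at 4 h had 26.1% of its counts on Gm26917, against 8.12% and 10.8% in dark replicates 1 and 2. The part of that library in the 4 h values was not tested. Hspa1b stood high in replicate 1 of both groups at 4 h, at 35.96, 10.01 and 8.50 CPM in lit libraries and 37.4, 7.75 and 9.48 CPM in dark ones. In LiTEC cells at 0 h Hspa1a had 6.71, 2.44 and 6.30 CPM in lit libraries and 0.839, 0.310 and 0.991 CPM in dark ones (2.89 ± 0.60; edgeR adjusted p = 0.0123). The light effect on Hspa1a in WT minus LiTEC cells was 2.96 ± 0.96 and did not pass (edgeR adjusted p = 0.68).

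Of 23 tested genes of a list of noncoding snoRNA hosts 12 fell (52.2%, against 1.2% of all tested genes) and 11 did not pass. Gas5 (chr1:161034422-161038539), a growth arrest gene with many snoRNAs in its introns, had 117, 131 and 138 CPM in lit libraries and 269.8, 232 and 247 CPM in dark ones. Snhg4 had 46.1, 71.6 and 68.3 CPM in lit libraries and 184, 140.4 and 163 CPM in dark ones. Dancr (chr5:74093060-74095406) had 9.57, 10.5 and 10.7 CPM in lit libraries and 35.4, 26.3 and 37.6 CPM in dark ones. The lit libraries were the low ones in each case, with no overlap. The log2 fold change was −0.96 ± 0.07 for Gas5 (edgeR adjusted p = 6.79e-12), −1.40 ± 0.10 for Snhg4 (edgeR adjusted p = 1.27e-11) and −1.69 ± 0.15 for Dancr (edgeR adjusted p = 1.45e-09).

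None of the 23 host list genes rose, and their median was −0.61. The annotation places a snoRNA gene in 20 of the 23, of which 10 fell, with a median of −0.57. By annotation alone, on the list or not, 34 noncoding hosts were tested. Of these 13 fell and 1, Gm26945, rose, with a median of −0.46. Lrrc75aos2 (chr11:62605766-62607748) is on the list but holds no annotated snoRNA, and it stood at 2.59, 2.74 and 1.73 CPM in lit libraries and 10.1, 9.30 and 10.8 CPM in dark ones (−2.07 ± 0.17; edgeR adjusted p = 2.61e-10). The other list members that fell were Snhg8 (−1.09 ± 0.16), Rab26os (−1.05 ± 0.20), Snhg6 (−0.98 ± 0.13), Snhg5 (−0.87 ± 0.09), Zfas1 (−0.87 ± 0.11), Snhg1 (−0.66 ± 0.07), Snhg3 (−0.61 ± 0.11) and Snhg12 (−0.52 ± 0.11). Of the 12, Snhg12 was the one whose groups overlapped, and its call was lost without lit replicate 1, dark replicate 1 or dark replicate 3 (edgeR adjusted p = 0.0962, 0.0638 and 0.0534). Members that did not pass included Snhg14 at 0.14, Snhg15 at −0.01 and Snhg17 at −0.15. Lrrc75aos2, Dancr, Zfas1, Snhg3, Snhg6 and Rab26os lie over a gene on the opposite strand, and the strand setting of the counting is not given in the sources used here, so their counts are uncertain.

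**Figure D2:**
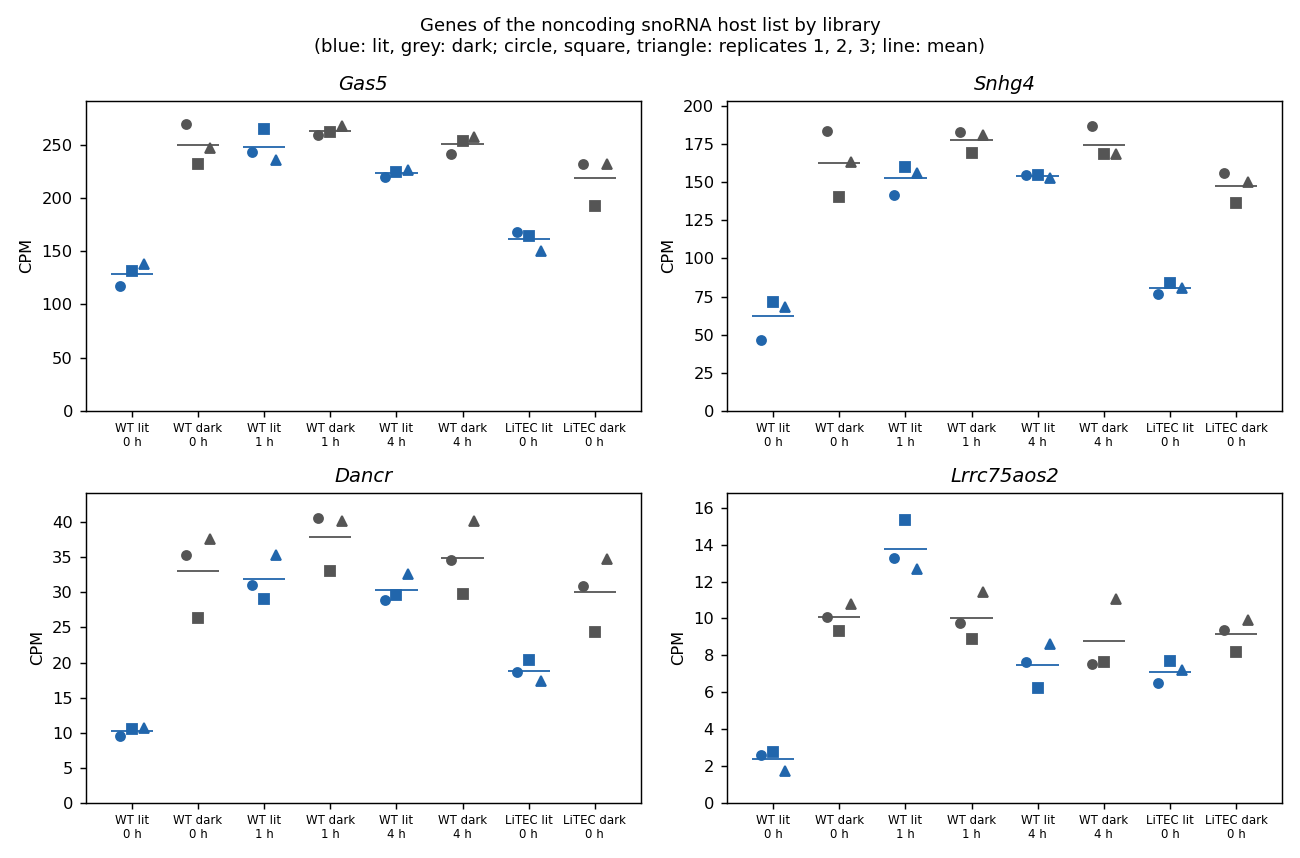
CPM of 4 genes of the noncoding snoRNA host list in each library, drawn as for the chaperone genes. For each of the 4 genes the lit WT libraries at 0 h are the lowest of all libraries drawn, with Gas5 at 117 to 138 CPM.

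Light effects on the list were smaller at 1 h for several genes. At that time Gas5 had 243, 265 and 236 CPM in lit WT libraries and 259, 262 and 268 CPM in dark ones, which were close together, and the list median was −0.05. The light effect at 0 h minus that at 1 h was −0.87 ± 0.09 for Gas5 (edgeR adjusted p = 3.75e-07) and −1.44 ± 0.20 for Dancr (edgeR adjusted p = 0.000101). Lrrc75aos2 had 13.3, 15.3 and 12.7 CPM in lit libraries at 1 h and 9.76, 8.87 and 11.4 CPM in dark ones, so its lit libraries were then the higher ones (0.46 ± 0.14; edgeR adjusted p = 0.206). In LiTEC cells at 0 h Gas5 had 168, 164 and 150.3 CPM in lit libraries and 232, 192 and 232 CPM in dark ones, also without overlap (−0.44 ± 0.07; edgeR adjusted p = 0.000434). The effect in WT minus that in LiTEC cells was −0.52 ± 0.09 (edgeR adjusted p = 0.0163).

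Of 163 tested snoRNA genes 19 were lower (11.7%) and 1 was higher (0.613%), against 1.2% and 1.66% of all tested genes. Mature snoRNAs carry no poly(A) tail, so these loci are poorly sampled here. An annotated host was found for 17 of the 19 snoRNA genes, some of which share a host. For 3 of the 17 the host was called lower: Rabggtb, Rpl3 and Snhg6. Snord49a, Snord49b and Snord65 lie in 2410006H16Rik, which was not called (−0.12), and had log2 fold changes of −1.53, −1.80 and −2.37. Of 244 protein-coding hosts 6 were lower and 1 higher, with a median of −0.04.

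Ribosomal protein genes were slightly lower. All 81 tested genes of both subunits had a negative log2 fold change, with a median of −0.14 and a range of −0.95 to −0.03, and 7 passed the test. Their summed level was 30678, 30747 and 32786 CPM in lit libraries and 33388, 34405 and 35309 CPM in dark ones, so the sums did not overlap. In 29 of the 81 genes every lit library lay below every dark one, against 7.23% of all tested genes. Called lower were 10.4% of large and 6.06% of small subunit genes, against 1.2% of all tested genes. The 7 called genes were Rpl24 (−0.95 ± 0.17), Rpl22l1 (−0.49 ± 0.12), Rps15a (−0.36 ± 0.07), Rpl3 (−0.35 ± 0.07), Rps20 (−0.34 ± 0.08), Rpl34 (−0.22 ± 0.06) and Rpl7 (−0.17 ± 0.05). Rpl24 had few counts, averaging 2.96 ± 0.119 CPM in lit cells and 5.72 ± 0.431 CPM in dark cells (SD, n = 3 each), and it overlaps Gm28037 on its own strand. Without dark replicate 3, the edgeR adjusted p was 0.0735 for Rpl22l1, 0.0506 for Rpl3, 0.168 for Rps20, 0.0839 for Rpl34 and 0.107 for Rpl7, and each was also lost without at least 1 other library. Rpl24 and Rps15a kept their call without any one library. In LiTEC cells at 0 h the median of the 81 genes was 0.01 and 35 were negative. None of 19 translation factor genes (median −0.07) and none of 20 nucleolar and ribosome assembly genes (median −0.02) was called.

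**Figure D3:**
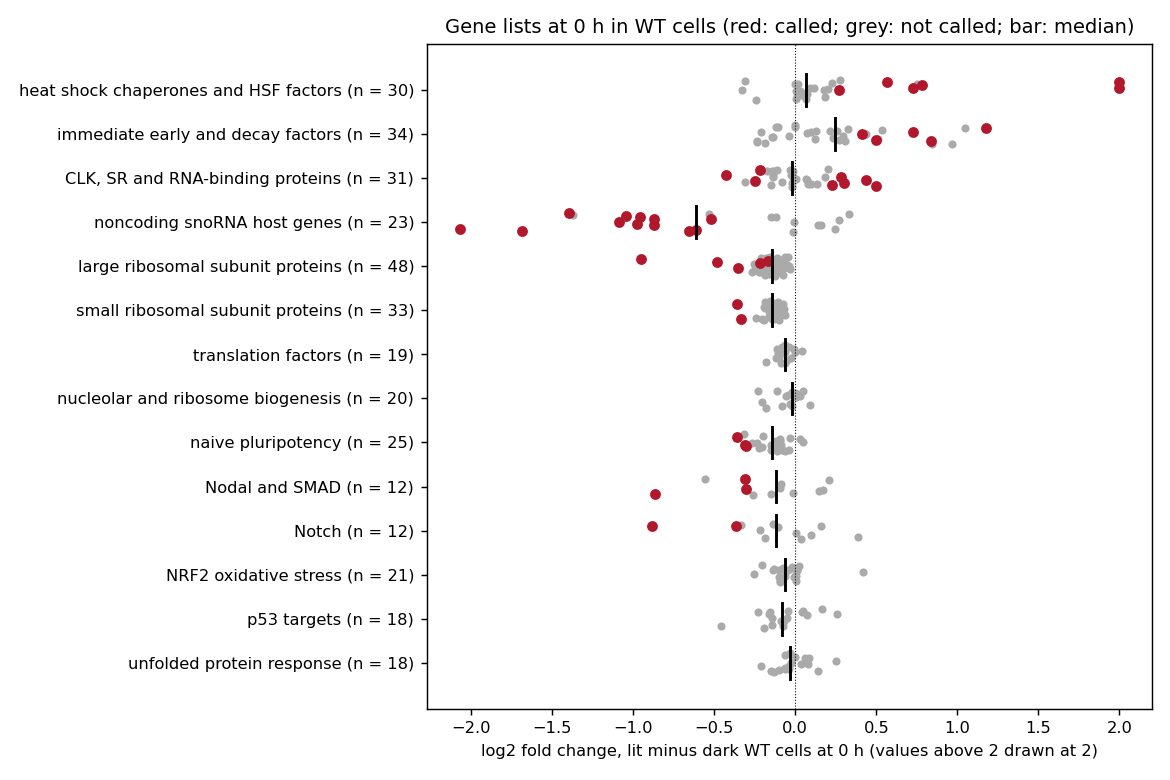
Log2 fold change of lit minus dark WT cells at 0 h for the tested members of 14 gene lists, with called genes in red, other genes in grey and a bar at each median. Hspa1a and Hspa1b, at 5.85 and 3.85, are drawn at the edge; the host genes reach −2.07, and most ribosomal protein genes lie in a narrow band left of 0.

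Noncoding loci inside introns made up much of what rose. Unspliced host RNA can also be counted at such loci, and its part in these values was not tested. Of 984 tested noncoding loci lying in an intron of a protein-coding gene on that gene's strand, 112 were higher (11.4%) and 10 lower (1.02%), with a median of 0.27. Of 64 loci in introns on the opposite strand 0 were higher and 4 lower (median −0.16). Of 813 loci outside protein-coding genes 12 were higher (1.48%) and 27 lower (3.32%), with a median of −0.12. The count of 112 became 48 without dark replicate 3, 56 without lit replicate 2, and 67 without lit replicate 1 or without dark replicate 2.

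**Figure D4:**
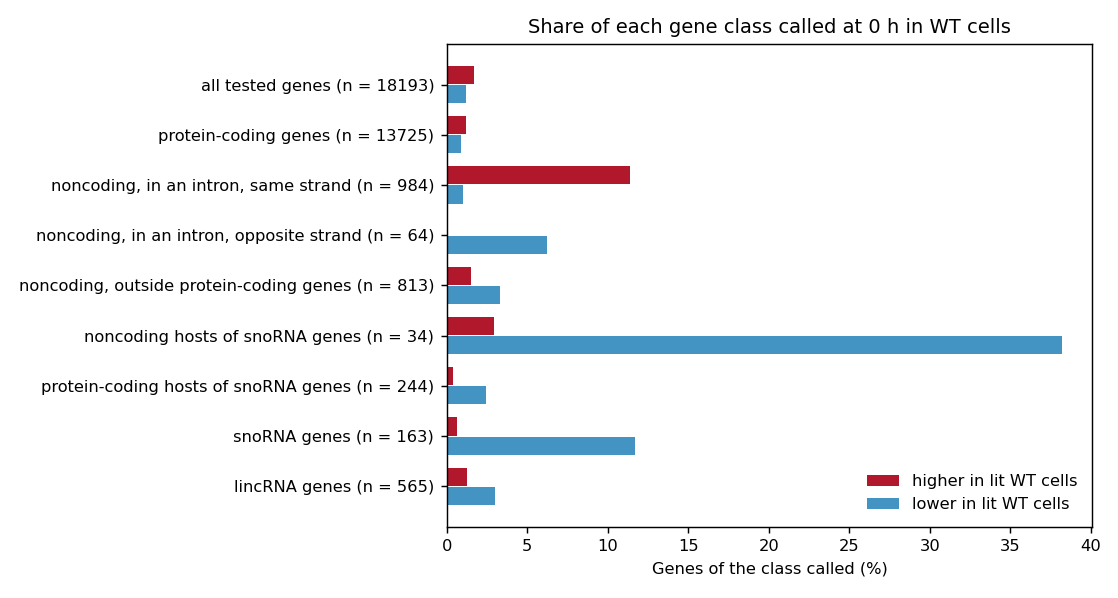
Share of the tested genes of each class, in percent, that were called higher (red) or lower (blue) in lit WT cells at 0 h, with the class size in brackets. Same-strand intronic loci reach 11.4% higher, and noncoding hosts of snoRNA genes, here all 34 by annotation, reach 38.2% lower and 2.94% higher.

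Gm36527 (chr1:151496557-151499585), in an intron of the Polycomb gene Rnf2, had 19.6, 22.9 and 21.6 CPM in lit libraries and 11.8, 11.4 and 12.2 CPM in dark ones. Gm45493 (chr8:18862196-18866143), in an intron of Agpat5, had 12.2, 12.8 and 13.7 CPM in lit libraries and 6.42, 6.90 and 6.80 CPM in dark ones. The groups were well apart at both loci. The log2 fold change was 0.86 ± 0.12 for Gm36527 (edgeR adjusted p = 1.27e-05) and 0.03 ± 0.06 for Rnf2, and 0.94 ± 0.13 for Gm45493 (edgeR adjusted p = 1.36e-05) and −0.02 ± 0.08 for Agpat5. Of the 102 hosts of the 112 loci 100 were tested, and 9 of these were higher and 0 lower, with a median of 0.04. Of all tested protein-coding genes 1.18% were higher and 0.86% lower, with a median of −0.01. Trmt1l, a tRNA methyltransferase-like gene, rose with its locus, at 0.48 ± 0.07 against 1.50 ± 0.21 for Gm37893 (chr1:151445305-151447741). Further higher loci were Gm12207 in Skp1a (1.30 ± 0.18), Gm43696 in Lrig2 (1.09 ± 0.16), Gm44153 in Aak1 (1.41 ± 0.21) and Gm37531 in Fam117b (0.85 ± 0.15). Gm28229, also in an intron on the host's strand, went the other way (−1.27 ± 0.15).

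Summed over the 984 loci, lit WT libraries at 0 h held 3915, 4118 and 3732 CPM and dark WT libraries at 0 h held 3491, 3070 and 3076 CPM. These groups did not overlap, but the dark WT libraries at 0 h had the lowest mean of the 8 groups compared. That mean was 3212 ± 241 CPM, against 3554 ± 191 in dark WT cells at 1 h, 4023 ± 292 in dark WT cells at 4 h and 3620 ± 116 in dark LiTEC cells at 0 h (SD, n = 3 each). Lit WT cells at 0 h averaged 3922 ± 193 CPM (SD, n = 3). The part of the low dark group in the calls was not tested. The median of the loci was −0.02 in LiTEC cells at 0 h, −0.05 in WT cells at 1 h and −0.09 in WT cells at 4 h.

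**Figure D5:**
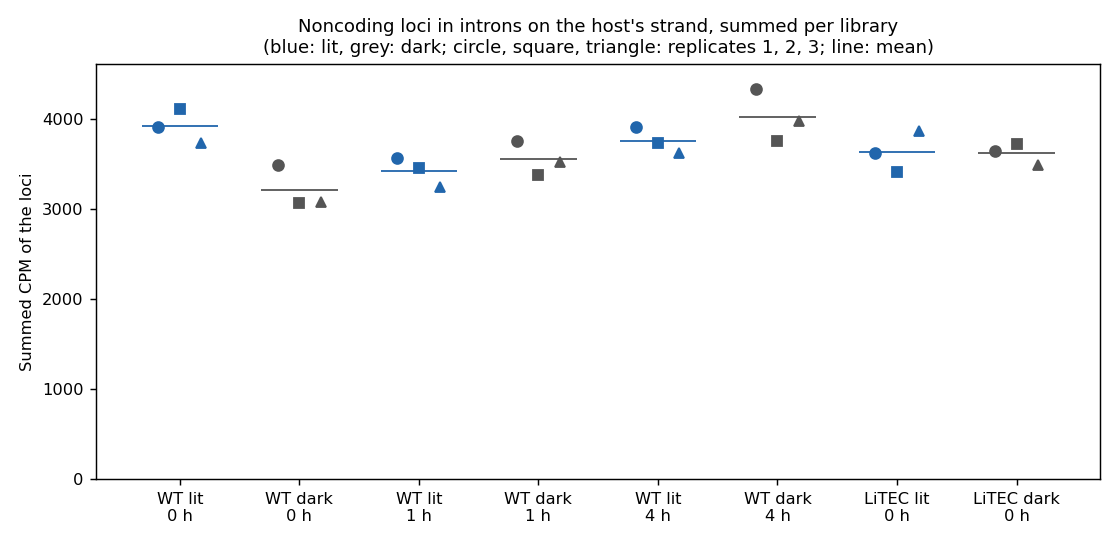
Summed CPM of the 984 same-strand intronic loci in each library, drawn as for the chaperone genes. Lit WT libraries at 0 h lie at 3732 to 4118 CPM and dark WT libraries at 0 h at 3070 to 3491 CPM, the lowest of the dark groups.

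Higher calls among protein-coding genes went with exonic length. Split into 4 classes of nearly equal size, from shortest to longest, the genes held 12, 31, 44 and 75 higher calls and 35, 23, 35 and 25 lower calls. The median log2 fold changes of the classes, in that order, were −0.061, −0.021, −0.004 and 0.023. The median exonic length was 6420 bases among higher genes, 4566 bases among lower genes and 4448 bases among all tested ones. Longer genes also had more counts, with a median level of 40.1 CPM in the longest class and 9.11 CPM in the shortest. In LiTEC cells at 0 h the medians were −0.02 in the longest class and 0.03 in the shortest.

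Among single protein-coding genes, Swt1, an RNA endoribonuclease gene, had 72.6, 79.6 and 79.4 CPM in lit libraries and 39.0, 48.5 and 43.9 CPM in dark ones. Zfp386, a zinc finger gene, had 21.9, 20.5 and 21.3 CPM in lit libraries and 37.7, 37.5 and 43.8 CPM in dark ones. Swt1 was thus higher and Zfp386 lower in every lit library. The log2 fold change was 0.82 ± 0.09 for Swt1 (edgeR adjusted p = 3.53e-07) and −0.90 ± 0.10 for Zfp386 (edgeR adjusted p = 9.21e-07). Dpm1, a subunit of dolichol-phosphate mannose synthase, rose (0.80 ± 0.10), as did Cdr2 (0.52 ± 0.07), and Ssbp1, which codes for the mitochondrial single-strand DNA binding protein, fell (−0.50 ± 0.07).

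Splicing regulators moved both ways: of 31 tested genes of the CLK kinase, SR protein and RNA-binding protein list 5 rose and 3 fell, with a median of −0.02. These were 16.1% and 9.68% of the list, against 1.66% and 1.2% of all tested genes. CLK kinases phosphorylate SR splicing factors, and Clk4 had 53.3, 61.3 and 53.3 CPM in lit libraries and 39.0, 44.7 and 35.2 CPM in dark ones (0.49 ± 0.08; edgeR adjusted p = 8.55e-05). Clk3 (0.44 ± 0.07), Clk2 (0.30 ± 0.08), Rbm5 (0.28 ± 0.07) and Tra2a (0.23 ± 0.06) rose too. Srsf10 (−0.22 ± 0.04), Rbm39 (−0.25 ± 0.06) and Cirbp, a cold-inducible RNA-binding protein gene (−0.42 ± 0.12; edgeR adjusted p = 0.0499), fell. Without dark replicate 3, 5 of these 8 calls were lost: Clk2 (edgeR adjusted p = 0.188), Rbm5 (0.107), Tra2a (0.368), Rbm39 (0.0558) and Cirbp (0.129).

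Of 34 tested immediate early genes and decay factors 5 rose (14.7%, against 1.66% of all tested genes) and none fell, with a median of 0.25. They were Gadd45g (1.18 ± 0.28), Gadd45b (0.84 ± 0.20), Zfp36 (0.73 ± 0.16), Junb (0.50 ± 0.12) and Klf10 (0.41 ± 0.10). Gadd45b, a stress-inducible gene, had 13.6, 17.3 and 14.7 CPM in lit libraries and 7.18, 10.7 and 7.49 CPM in dark ones, without overlap. All 5 calls were lost without dark replicate 3, where the edgeR adjusted p was 0.0514 for Gadd45g, 0.0918 for Gadd45b, 0.0564 for Zfp36, 0.0738 for Junb and 0.169 for Klf10. Fos, at 4.39, 1.87 and 1.51 CPM in lit libraries and 4.05, 0.463 and 1.69 CPM in dark ones, did not pass (0.43 ± 0.40), nor did Egr1 (0.97 ± 0.32; edgeR adjusted p = 0.097), which passed with the replicate block (edgeR adjusted p = 0.0484). Of 13 ERK feedback genes Phlda1 (1.20 ± 0.25) and Spry1 (0.55 ± 0.15) rose, and the median was −0.04; Spry1 lost its call in 5 of the 6 fits without 1 library, with an edgeR adjusted p of 0.177 without lit replicate 1.

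Other stress lists held few calls. None of 21 tested NRF2 genes (median −0.06), 18 p53 targets (median −0.08) or 18 unfolded protein response genes (median −0.04) was called. Hmox1, the NRF2 target that codes for heme oxygenase, had 58.6, 51.8 and 49.5 CPM in lit libraries and 65.5, 58.3 and 67.0 CPM in dark ones, which overlapped (−0.25 ± 0.09; edgeR adjusted p = 0.121). With the replicate block Hmox1 passed as lower (edgeR adjusted p = 0.0361). Of 6 zinc and metallothionein genes the zinc exporter gene Slc30a1 rose, at 39.7, 33.5 and 41.8 CPM in lit libraries and 28.3, 23.8 and 30.3 CPM in dark ones (0.49 ± 0.13; edgeR adjusted p = 0.0279), and it was higher at 1 h too (0.81 ± 0.13). Of 18 integrated stress response genes Cebpg rose (0.45 ± 0.11) and Ppp1r15a fell (−0.39 ± 0.10). Each was 5.56% of that list, against 1.66% higher and 1.2% lower over all tested genes. Without lit replicate 1 the calls of Slc30a1, Cebpg and Ppp1r15a were lost (edgeR adjusted p = 0.123, 0.165 and 0.218).

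Some genes of stem cell identity and signalling fell. Of 25 naive pluripotency genes 3 fell (12%), 23 had a negative sign and 2 a positive one, with a median of −0.15. Over all tested genes 1.2% fell and 48.5% had a positive sign. Sox2, a core pluripotency factor, had 237, 231 and 220.2 CPM in lit libraries and 277, 288 and 287 CPM in dark ones, without overlap (−0.31 ± 0.07; edgeR adjusted p = 0.00443). Fbxo15 (−0.36 ± 0.07) and the Nodal co-receptor gene Tdgf1 (−0.31 ± 0.08) were the others. Nanog, at 279.9, 429 and 411 CPM in lit libraries and 349.7, 549.6 and 494 CPM in dark ones, did not pass (−0.32 ± 0.10; edgeR adjusted p = 0.0711), but passed with the replicate block (edgeR adjusted p = 0.0338). Pou5f1 (−0.09 ± 0.10), Gapdh (−0.11 ± 0.06) and Actb (−0.04 ± 0.06) were not called either.

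The receptor gene Notch3 had 34.4, 30.2 and 24.1 CPM in lit libraries and 64.7, 55.4 and 43.4 CPM in dark ones, without overlap (−0.88 ± 0.13; edgeR adjusted p = 5.24e-05). With Notch1 (−0.37 ± 0.06) it made 2 of 12 tested Notch genes that fell. Of 12 Nodal and SMAD genes Lefty1, a Nodal antagonist (−0.86 ± 0.20), Smad7 (−0.31 ± 0.08) and Tdgf1 fell. Notch3 (−0.74 ± 0.13; edgeR adjusted p = 0.0027) and Lefty1 (−1.12 ± 0.20; edgeR adjusted p = 0.00366) were also lower at 1 h. Of 22 G2/M genes Ccnb1 (−0.35 ± 0.06) and Cdk1 (−0.29 ± 0.06) fell, and of 26 G1/S genes Rrm2 (−0.19 ± 0.05). The medians were −0.06 for G2/M and −0.03 for G1/S genes. Genes that fell made up 9.09% of the G2/M list and 3.85% of the G1/S list. They made up 16.7% of the Notch list and 25% of the Nodal and SMAD list, against 1.2% of all tested genes. Lost calls were those of Tdgf1, Lefty1 and Smad7 without lit replicate 1 (edgeR adjusted p = 0.118, 0.073 and 0.0955), of Cdk1 without dark replicate 3 (0.0597) and of Rrm2 without lit replicate 2 (0.11).

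The same genes were then read in libraries that the calls did not compare. In LiTEC cells at 0 h 90.7% of the 302 higher genes and 92.7% of the 218 lower genes had the same sign, with medians of 0.26 and −0.33. Over all tested genes 50.7% were positive and 49.3% negative there. Of 170 genes called in LiTEC cells (0.934% of tested genes), 73 were higher (0.401%) and 97 lower (0.533%), and 42 of the higher and 40 of the lower ones were shared. The shared higher genes were 13.9% of the WT list and 57.5% of the LiTEC list, and the shared lower genes were 18.3% of the WT list and 41.2% of the LiTEC list. At 1 h in WT cells 62.3% of the higher and 70.2% of the lower genes had the same sign, against 50.3% and 49.7% of all tested genes. The medians were 0.05 and −0.11, and 52 genes were called (0.286%). At 4 h in WT cells edgeR called no gene (0%), but dark replicate 3 of that time had 26.1% of its counts on Gm26917. The same sign was then seen in 47.7% of the higher and 69.7% of the lower genes, against 47.7% and 52.2% of all tested genes.

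Between the light effects at 0 h and 1 h in WT cells 94 genes differed (0.517%), 47 in each direction. Of these, 38 were same-strand intronic loci, 35 of them with the more positive effect at 0 h. The count of 94 became 45 without lit replicate 2 and 48 without dark replicate 3 of 0 h, 57 without lit replicate 2 or dark replicate 1 of 1 h, and 59 without dark replicate 2 of 1 h. Rsrp1, an arginine- and serine-rich protein gene, was among the 94, at −0.03 ± 0.06 at 0 h and 0.47 ± 0.06 at 1 h (edgeR adjusted p = 6.84e-06 at 1 h). Between WT and LiTEC cells at 0 h 4 genes differed (0.022%), 1 with the more positive effect in WT cells (0.0055%) and 3 with the more negative one (0.0165%): Lrrc75aos2 (−1.70 ± 0.23), Snord43 (−1.45 ± 0.25), Gas5 (−0.52 ± 0.09) and B830012L14Rik (0.82 ± 0.15). The count of 4 became 1 without lit WT replicate 1, dark WT replicate 3 or dark LiTEC replicate 2, and 2 without lit LiTEC replicate 1 or 2.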

How the data were processed

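RNA had been extracted with TRIzol and made into stranded poly(A) libraries, per the labels' protocols. The deposited table holds the authors' raw gene counts for 54842 genes in 36 libraries. FastQC, featureCounts and mm10/GRCm38 are named in the submitters' processing notes; not given in the sources used here were the aligner, the versions, the strand setting and the treatment of multi-mapping reads. Counts were fitted with edgeR 4.0.16 in R 4.3.3 (with limma 3.58.1): filterByExpr with a minimum count of 10 left 18193 genes, at least 99.8792% of each library's counts, and the quasi-likelihood test with TMM scaling used a mean per group, 12 in all, plus batch, with 23 residual degrees of freedom. P-values were Benjamini-Hochberg adjusted over all tested genes. CPM use TMM-scaled library sizes, and SE is the fold change over the root of F. Totals over all libraries were 11132970 to 21842256, so genes of a few CPM rest on few counts. Positions and types come from GENCODE M21, matched for 18184 tested genes. The fit was tested on simulated data.

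Named genes were the 15 higher and 15 lower calls with the smallest p at 5 CPM or more, every called list member, genes whose effect differed between times or genotypes (12 of smallest p where over 24) and 8 fixed genes; a called gene is not reported here. Members and lists were chosen with earlier results of these data known. Same-numbered lit and dark libraries deviated together (r = 0.749, 0.639 and 0.63 over 10528 genes). Replicates 2 and 3, both of batch 2, did not when crossed (r = −0.08 and −0.081), so the numbers pair the libraries of batch 2. For replicate 1, number and batch cannot be told apart. Alternatives were the replicate block, other batch terms, RLE scaling, DESeq2 1.42.0, no filter, no ribosomal RNA loci, compared groups alone, batch 2 alone and each library left out.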

Additional observations from a re-analysis of the deposited data

Results flagged for a closer look

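The light effect differed between genotypes or between times in edgeR's interaction test for the genes given here, all on the log2 scale and with p adjusted over 18193 genes. At 0 h, the effect in WT minus that in LiTEC cells was −1.70 for Lrrc75aos2 (adjusted p = 0.000189), −1.45 for Snord43 (adjusted p = 0.0134), −0.52 for Gas5 (adjusted p = 0.0163) and 0.82 for B830012L14Rik (adjusted p = 0.0175).

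Within WT cells, the effect at 0 h minus that at 1 h was negative for 9 genes of the noncoding snoRNA host list, of which Lrrc75aos2 holds no annotated snoRNA. It was −2.53 for Lrrc75aos2 (adjusted p = 3.88e-09), −0.87 for Gas5 (adjusted p = 3.75e-07), −1.18 for Snhg4 (adjusted p = 3.51e-06), −1.44 for Dancr (adjusted p = 0.000101), −0.68 for Snhg1 (adjusted p = 0.0003), −0.95 for Snhg6 (adjusted p = 0.00572), −0.63 for Snhg5 (adjusted p = 0.00645), −0.80 for Zfas1 (adjusted p = 0.00736) and −0.89 for Snhg8 (adjusted p = 0.0442).

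For loci in introns on the host's strand the same difference was 1.85 for Gm12207 (adjusted p = 0.00026), 1.31 for Gm37531 (adjusted p = 0.00106), 1.91 for Gm44153 (adjusted p = 0.00114), 0.98 for Gm36527 (adjusted p = 0.00181), −1.10 for Gm28229 (adjusted p = 0.00546), 1.10 for Gm43696 (adjusted p = 0.0166), 0.88 for Gm45493 (adjusted p = 0.0166) and 1.35 for Gm37893 (adjusted p = 0.033). Among the remaining genes it was 1.91 for Gm13689 (adjusted p = 0.000524), −1.51 for Snord43 (adjusted p = 0.000685), −0.50 for Rsrp1 (adjusted p = 0.00133), 0.77 for Dpm1 (adjusted p = 0.00849), −1.28 for Gm28285 (adjusted p = 0.0085), 0.66 for Swt1 (adjusted p = 0.00863), −0.48 for Fbxo15 (adjusted p = 0.0112), −0.71 for Zfp386 (adjusted p = 0.0128), −1.07 for Rpl24 (adjusted p = 0.0141), −0.46 for Ssbp1 (adjusted p = 0.0166), −1.03 for Gm24494 (adjusted p = 0.0258) and 0.38 for Rbm5 (adjusted p = 0.0472).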

How the results depend on the processing

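All 520 genes called in WT cells at 0 h kept their direction under every alternative that tested them. These fits reused libraries that made the calls, so the shared direction is not separate support. The number of called genes was 870 with the replicate block, 277 with no batch term, 173 with the compared groups only and 141 in batch 2 alone, and it ran from 230 to 430 as each library was left out. Higher same-strand intronic loci, 112, numbered 65 with no batch term, 50 with the compared groups only and 45 in batch 2 alone, and 48 to 85 as each library was left out. Lower genes of the snoRNA host list, 12, numbered 8 to 14 throughout and 11 to 13 as each library was left out. Genes that differed between WT and LiTEC cells, 4, numbered 7 with the replicate block, 31 with no expression filter, 0 in batch 2 alone (653 at an unadjusted p below 0.05 by edgeR) and 1 to 5 as each library was left out. With no true difference, a share of about 0.05 of the tested genes would lie below that unadjusted p. DESeq2, on all libraries, gave 6. Genes that differed between 0 h and 1 h, 94, numbered 157 with the replicate block, 55 with no batch term, 162 with no expression filter, 56 with the compared groups only, 14 in batch 2 alone and 45 to 83 as each library was left out. The causes were not tested. Among named genes the block brought Nanog, Egr1 and Hmox1 past the threshold and changed no other call. As each library was left out, Actb (main value −0.04) ran from −0.108 without lit replicate 3 to 0.011 without lit replicate 2, and Rsrp1 (main value −0.03) from −0.09 to 0.027 in the same fits, uncalled throughout. Of 73 called genes named, 46 kept the call in all 6 fits without a library of the comparison. Batch 1 holds 1 library per group, so it gives a difference but no test of its own.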

Other observations

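These genes were chosen after their values were seen. In the imprinted region from Meg3 to Mirg on chromosome 12 (GRCm38, 109541001 to 109749460) 58 genes were tested. Of these 4 rose and none fell, against 1.66% and 1.2% of all tested genes. The median of the 58 was 0.22, and it was 0.22 in WT cells at 1 h and −0.28 in LiTEC cells at 0 h. Most of the 58 were miRNA or snoRNA entries of a few CPM or less. Some lie inside the longer genes Rian and Mirg, so the 58 may not be independent. Meg3, a maternally expressed noncoding RNA, had 631, 580.0 and 458 CPM in lit libraries and 527, 376 and 370.1 CPM in dark ones, which overlapped (0.40 ± 0.10; edgeR adjusted p = 0.0214). Gm26945 holds an annotated snoRNA but is not on the snoRNA host list. It had 47.3, 48.5 and 44.8 CPM in lit libraries and 32.4, 25.1 and 24.8 CPM in dark ones, without overlap (0.78 ± 0.10; edgeR adjusted p = 7.48e-06).

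Mir17hg, host of the miR-17 cluster, had 41.7, 39.9 and 36.7 CPM in lit libraries and 79.5, 54.0 and 67.5 CPM in dark ones, without overlap (−0.75 ± 0.12; edgeR adjusted p = 8.55e-05). Of 7 tested loci of the miR-290 cluster 3 fell, against 1.2% of all tested genes: Mir291b (−0.69 ± 0.14), Mir293 (−0.74 ± 0.18) and Mir292 (−1.02 ± 0.26). Levels were low, with means of 9.48 CPM in lit and 15.2 CPM in dark cells for Mir291b, and 2.20 and 4.53 CPM for Mir292. The 7 lie close together (chr7:3218626-3220841), so they may not be independent. These are counts from poly(A) libraries and were not taken as levels of mature miRNAs. Mir295 (−0.98 ± 0.30), Mir290a (−0.69 ± 0.24), Mir291a (−0.58 ± 0.29) and Mir294 (−0.58 ± 0.30) did not pass.

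Among genes of the cell surface and matrix, Hspg2, which codes for perlecan, averaged 347 ± 31.8 CPM in lit cells and 507 ± 25.3 CPM in dark cells (SD, n = 3 each; −0.54 ± 0.10), and Agrn, which codes for agrin, had 223, 198 and 225 CPM in lit libraries and 312, 279 and 279 CPM in dark ones (−0.43 ± 0.07). Of 6 linker histone genes Hist1h1c (−0.62 ± 0.13), Hist1h1e (−0.40 ± 0.08) and Hist1h1b (−0.34 ± 0.09) fell, against 1.2% of all tested genes. Of all 66 tested genes named Hist 5 were lower and 0 higher, with a median of −0.14.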
